A study of Mus musculus with 16 samples.

Results

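The 10 genes described here mark inhibitory (GABAergic) neurons of the brain or encode neuropeptides that these neurons release. They are Gad1, Gad2, Slc32a1, Pvalb, Sst, Vip, Npy, Cck, Reln and Lhx6, chosen by symbol as known markers, with earlier results of these data known, and they are 10 of the 37583 genes listed. RNA was measured in 16 libraries from 8 C57BL/6J mice, with cortex and cerebellum of each mouse. The groups were wild-type cortex, wild-type cerebellum, A391T cortex and A391T cerebellum, with 4 libraries in each. The A391T mice carried the mutation of the metal transporter gene Slc39a8 that is labelled A391T (A393T), with zygosity not given in the sources used here, and the labels name no treatment for any group. The study's wild-type mice were 12 weeks old, and the RNA came from the contralateral hemisphere of males, with frontal cortex and cerebellum isolated by blunt dissection. The age and sex of the A391T mice are not given in the sources used here.

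GABAergic neurons make their transmitter from glutamate with the glutamate decarboxylases encoded by Gad1 and Gad2 and load it into vesicles with the transporter encoded by Slc32a1. In cortex these neurons are local interneurons of several classes, which are commonly told apart by the calcium-binding protein parvalbumin and the peptides somatostatin and VIP. Cerebellar cortex holds other inhibitory neurons, the Purkinje, basket, stellate and Golgi cells, and its excitatory granule cells make reelin in the adult. Several of the genes are not restricted to inhibitory neurons. Cck in particular is also made by many excitatory neurons of the cortex.

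Levels are in TPM, a transcript's share of its library corrected for gene length, so that genes can be compared. They were calculated here out of the counts, with lengths from the RPKM table. Libraries held from 20813432 to 30497206 counts on genes. The deposited RPKM table gives the libraries of 4 mice other names than the count files do, with CTX447 and CTX461 exchanged, CTX448 and CTX462 exchanged, and the same for CBLM447 and CBLM461 and for CBLM448 and CBLM462. Libraries are named here as in their titles, CTX for cortex and CBLM for cerebellum with the number of the mouse. The files do not show which naming is right. The names of the count files are used, and region comparisons within a genotype and genotype comparisons were repeated with the other names. Of the marker genes of cortical excitatory neurons, 7 of 7 were called higher in wild-type cortex, where the mean of Tbr1 was 126 TPM, against 0.704 TPM in cerebellum, and of those of cerebellar granule cells 7 of 7 were called higher in cerebellum, with Gabra6 at 0.387 and 679 TPM. The 8 markers of striatal projection neurons, 7 of them called higher in wild-type cortex, summed in cortex to between 649 and 998 TPM in 7 libraries and to 290 TPM in A391T CTX461. Of 5 tested hippocampal markers 3 were called higher in wild-type cerebellum and 2 lower. The 7 choroid plexus markers were called higher in cerebellum and summed to between 2399 and 8116 TPM in 6 cerebellum libraries, but to 54.6 TPM in wild-type CBLM479 and 52.6 TPM in A391T CBLM462.

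Of the 10 genes, 7 differed at least 2-fold between the regions of wild-type mice at an adjusted p-value under 0.05, which is what "called" means here (edgeR quasi-likelihood test, Benjamini-Hochberg adjustment over all genes tested). Higher in cortex were 5 of them, Sst, Vip, Npy, Cck and Lhx6, where 14.2% of all genes tested were called in that direction. Higher in cerebellum were 2, Pvalb and Reln, where 10.5% of all genes were called in that direction. Gad1 and Slc32a1 were higher in cerebellum by less than 2-fold, and Gad2 did not pass the test. In A391T mice the same 7 genes were called in the same directions, beside 14.9% of all genes higher in cortex and 9.80% higher in cerebellum. In each genotype the cortex and cerebellum libraries did not overlap for 9 of the 10 genes, the exception being Gad2. Among all genes tested, 65.9% in wild type and 61.8% in A391T did not overlap between regions either. With the 5 libraries that stand apart from their groups left out (wild-type CTX480 and CBLM479 and A391T CTX461, CBLM445 and CBLM461), the same 7 genes were called in each genotype. In whole tissue, fewer cells of a type and less RNA per cell cannot be told apart.

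**Figure D1:**
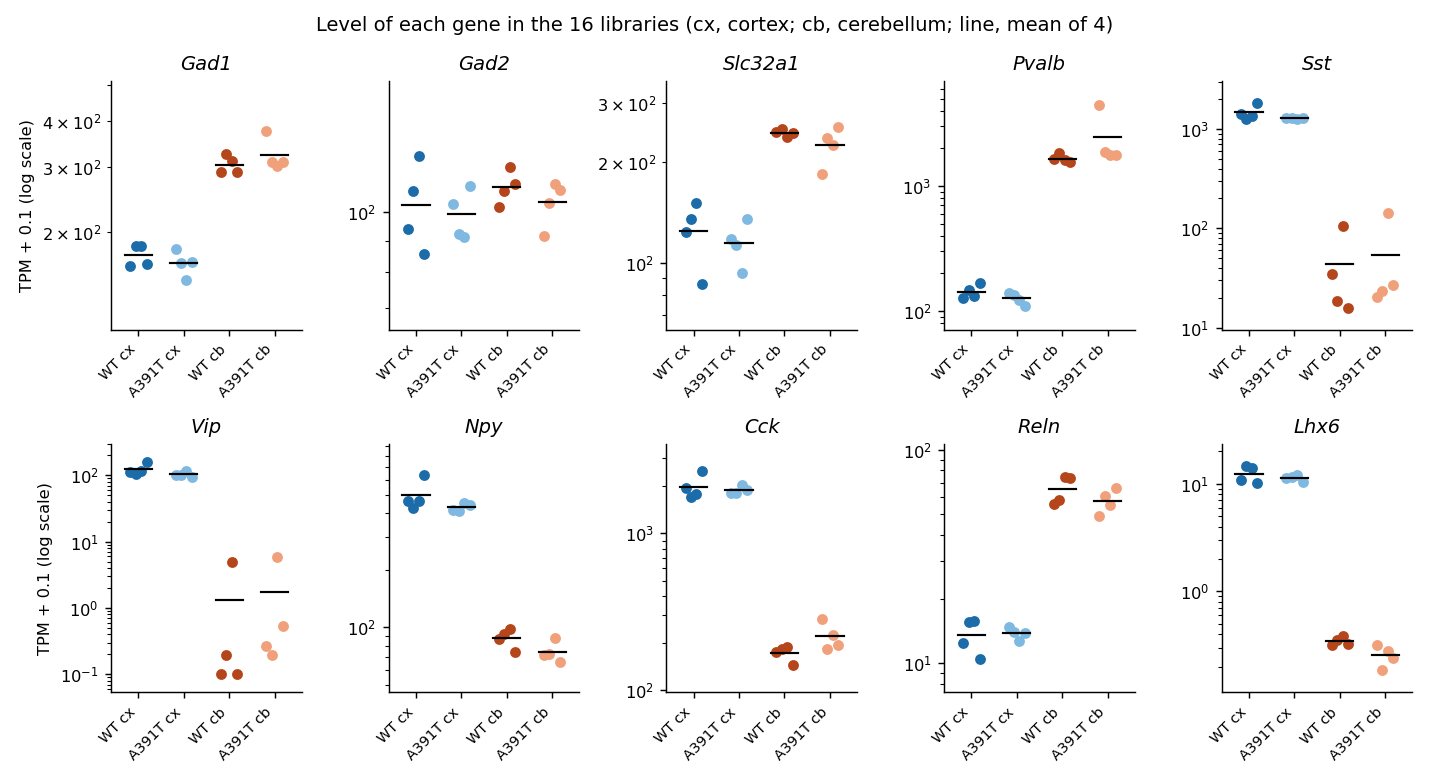
Each panel shows 1 gene, with TPM plus 0.1 on a log axis for the 4 libraries of each group (points) and their mean (line). Gad2 is the gene whose regions overlap, and single libraries stand away from the rest of their group for Pvalb, Sst and Vip in cerebellum.

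The 4 neuropeptide genes, all lower in cerebellum, and Pvalb, higher in cerebellum, are shown with the 120 bases before their annotated start, because members that moved the same way can be compared there letter by letter. The sequences are from RefSeq on GRCm38.p6, in which all 10 genes had a promoter entry, and run 5′ to 3′ on the strand of the gene. Capitals mark the motifs searched, which were TGACGTCA and its shorter form TGACGT on both strands (the cyclic AMP response element, known from the somatostatin promoter) and the TATA-like words TATAAA and TATTTAA on the strand of the gene.
Sst, chr16:23890845-23890964, minus strand: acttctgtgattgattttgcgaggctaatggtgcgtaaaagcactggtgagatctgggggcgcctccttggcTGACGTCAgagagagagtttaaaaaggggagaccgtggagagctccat
Vip, chr10:5639098-5639217, plus strand: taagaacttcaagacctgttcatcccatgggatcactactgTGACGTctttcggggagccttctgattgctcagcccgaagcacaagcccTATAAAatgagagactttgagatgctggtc
Npy, chr6:49822590-49822709, plus strand: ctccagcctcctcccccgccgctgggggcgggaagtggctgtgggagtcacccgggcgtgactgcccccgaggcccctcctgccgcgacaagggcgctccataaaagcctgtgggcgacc
Cck, chr9:121495695-121495814, minus strand: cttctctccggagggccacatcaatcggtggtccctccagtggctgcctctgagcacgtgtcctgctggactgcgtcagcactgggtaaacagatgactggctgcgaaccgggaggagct
Pvalb, chr15:78206401-78206520, minus strand: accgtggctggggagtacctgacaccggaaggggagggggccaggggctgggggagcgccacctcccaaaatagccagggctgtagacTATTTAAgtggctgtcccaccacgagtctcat
Over the 250 bases before the start, TGACGTCA was found in Sst alone among the 10 genes and in 1.55% of 32851 promoters. The shorter TGACGT, whose matches include TGACGTCA, was found in Sst and Vip and in 6.47% of promoters. TATAAA was found in Vip and in 7.59% of promoters, and TATTTAA in Pvalb and in 2.26%. These matches describe letters and not binding, and the genes without a match lack only these letters in this window.

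Among the genes of GABA synthesis and storage, Gad1 (chr2:70391129-70440071, NCBIM37, the assembly known as mm9) encodes the larger glutamate decarboxylase, GAD67. It stood at 162, 184, 184 and 164 TPM in wild-type cortex (CTX447, CTX448, CTX479 and CTX480) and at 292, 325, 312 and 290 TPM in wild-type cerebellum (CBLM447, CBLM448, CBLM479 and CBLM480). In A391T mice, in the order CTX445, CTX446, CTX461 and CTX462 and then CBLM445, CBLM446, CBLM461 and CBLM462, it stood at 180, 166, 149 and 166 TPM in cortex and at 376, 310, 302 and 309 TPM in cerebellum. Every cerebellum library was above every cortex library. All genes below are given in this order of libraries. The log2 fold change of cerebellum against cortex was 0.66 (SE 0.07) in wild type, with an adjusted p of 4.3e-06 by edgeR, and 0.88 (SE 0.11, adjusted p 7.1e-05 by edgeR) in A391T, both under 2-fold.

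Gad2 (chr2:22477725-22549394) encodes GAD65, the isoform associated with synaptic vesicles. In wild-type mice it stood at 93.9, 108, 123 and 85.4 TPM in cortex and at 102, 108, 118 and 111 TPM in cerebellum. In A391T mice it stood at 103, 92.2, 91.0 and 110 TPM and at 91.6, 103, 111 and 109 TPM. The regions overlapped in both genotypes. Its log2 fold change was -0.05 (SE 0.09) in wild type and -0.04 (SE 0.08) in A391T, where the test was not passed (adjusted p 0.64 and 0.67 by edgeR). The mean TPM in cerebellum was 1.07 times that in cortex in wild type and 1.05 times in A391T. Fold changes are scaled between libraries by TMM and the TPM levels are not, so their signs can differ.

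The ratio of Gad1 to Gad2 within a library does not depend on scaling between libraries. It was 1.71 ± 0.17 (SD, n = 4) in wild-type cortex and 2.78 ± 0.18 in wild-type cerebellum, and 1.67 ± 0.13 and 3.17 ± 0.64 in A391T mice. The log2 ratio was higher in cerebellum by 0.70 in wild type and by 0.91 in A391T, with an exact permutation p = 0.029 (two-sided) in each genotype, which is the lowest value possible with 4 libraries on each side. Paired by mouse as a replicate block, the ratio was higher in cerebellum in 4 of 4 mice of each genotype, with p = 0.125 in the exact sign-flip test, the smallest that 4 pairs can give.

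Slc32a1 (chr2:158436494-158441484) encodes the vesicular GABA and glycine transporter. In wild-type mice it stood at 123, 135, 151 and 86.5 TPM in cortex and at 245, 251, 237 and 244 TPM in cerebellum. In A391T mice it stood at 117, 113, 93.0 and 135 TPM and at 184, 236, 225 and 254 TPM. The regions did not overlap, and the log2 fold change was 0.83 (SE 0.13) in wild type and 0.86 (SE 0.12) in A391T. Reads were counted without regard to strand, and 24.8% of its exon bases are overlapped by Gm14205 on the other strand, so reads of the pair cannot be told apart there. Of 8 genes of GABA transport and breakdown, 2 were called higher in wild-type cerebellum, where 10.5% of all genes tested were called in that direction. They were the betaine and GABA transporter Slc6a12 (1.11 ± 0.34 TPM in cortex against 7.18 ± 0.81 in cerebellum, SD over 4 libraries) and the glutamine transporter Slc38a1 (88.4 ± 19.2 and 243 ± 17.0). None of the 8 was called lower, and their median log2 fold change was 0.51 beside 0.02 for all genes.

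Pvalb (chr15:78021544-78036830) encodes parvalbumin, which marks fast-spiking basket interneurons in cortex and Purkinje cells and molecular layer interneurons in cerebellum. It was the most abundant of the 10 transcripts in cerebellum and the fifth in wild-type cortex. In wild-type mice it stood at 128, 146, 131 and 166 TPM in cortex and at 1636, 1825, 1624 and 1545 TPM in cerebellum. In A391T mice it stood at 140, 135, 121 and 110 TPM in cortex, and in cerebellum at 1871, 1770 and 1784 TPM in CBLM446, CBLM461 and CBLM462 but at 4418 TPM in CBLM445. Between regions the log2 fold change was 3.39 (SE 0.10) in wild type, with an adjusted p of 2.6e-10 by edgeR, and 4.21 (SE 0.36, adjusted p 3.5e-06 by edgeR) in A391T. Without A391T CBLM445 the latter was 3.70. Measured against Slc32a1, which all GABAergic neurons need for release, Pvalb was at a ratio of 1.23 ± 0.47 in wild-type cortex and 6.79 ± 0.38 in wild-type cerebellum. In A391T mice the ratio was 1.13 ± 0.21 in cortex and 11.7 ± 8.2 in cerebellum, where CBLM445 stood at 24.05.

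Of 11 markers of cerebellar inhibitory neurons, 8 were called higher in wild-type cerebellum, 1 lower and 2 neither. Of all genes tested, 10.5% were called higher and 14.2% lower. The median log2 fold change of the 11 was 2.60 beside 0.02 for all genes. The largest were those of Slc6a5, the glycine transporter of Golgi cells (0.0360 ± 0.0316 TPM in cortex and 28.6 ± 2.3 in cerebellum), of the Purkinje cell gene Pcp2 (1.08 ± 0.43 and 804 ± 54.7) and of Car8 (16.0 ± 0.9 and 1531 ± 56.2). Nxph1, which encodes a neurexin ligand, was the 1 called lower, at 24.0 ± 1.5 TPM in cortex and 12.1 ± 0.9 in cerebellum. In A391T mice 8 of the 11 were called higher and 2 lower.

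Sst (chr16:23889667-23890930) encodes the precursor of somatostatin, an inhibitory peptide. In cortex it stood at 1428, 1258, 1342 and 1841 TPM in wild-type mice and at 1282, 1301, 1265 and 1297 TPM in A391T mice, which left Cck alone above it. In wild-type cerebellum it stood at 34.9, 18.6, 106 and 15.6 TPM and in A391T cerebellum at 20.5, 23.6, 143 and 26.6 TPM. CBLM479 (wild type) and CBLM461 (A391T) were thus the 2 highest of the 8 cerebellum libraries. On the log2 scale the regional difference was -5.22 (SE 0.48) in wild type, with an adjusted p of 2.2e-06 by edgeR, and -4.72 (SE 0.58, adjusted p 5.3e-05 by edgeR) in A391T. Without wild-type CBLM479 it was -6.15, and without A391T CBLM461 it was -5.86.

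Vip (chr10:4698927-4707323) encodes the precursor of vasoactive intestinal peptide. In cortex it stood at 111, 106, 116 and 160 TPM in wild-type mice and at 100, 102, 117 and 95.3 TPM in A391T mice. In cerebellum it rested on few reads, with 0, 1, 48 and 0 counts in the wild-type libraries and 2, 1, 56 and 4 counts in the A391T libraries. A count of 0 allows up to 3 counts at the same depth. The 48 and 56 counts, equal to 4.77 and 5.82 TPM, belonged to the same libraries, CBLM479 and CBLM461, that were high for Sst. The log2 fold change was -6.79 (SE 0.58) in wild type and -6.16 (SE 0.63) in A391T, with adjusted p-values of 1.1e-06 and 1.5e-05 by edgeR. Without wild-type CBLM479 the fitted value was -11.53 and without A391T CBLM461 it was -8.88, values that then rest on 1 count in 3 wild-type libraries and 7 counts in 3 A391T libraries and depend on the prior count of the fit.

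In the cerebellum libraries CBLM479 (wild type) and CBLM461 (A391T), some other genes named after their values were seen were also higher than in the other 6. Over all genes with at least 1 TPM, CBLM479 was the highest of the 8 for 19.6% and CBLM461 for 10.9%. Of the 14 other peptide precursors CBLM479 was the highest for 1 and CBLM461 for 8, and of the 13 other interneuron class markers for 1 and 7. Such counts name only the top library of each gene and do not show one that came second. For Tac1, Grp and Crhbp, for instance, CBLM479 stood below CBLM461 and above the other 6. The receptor gene Npy1r stood at 3.67 and 4.63 TPM in these libraries and between 0.790 and 1.53 TPM in the other 6, the peptide gene Tac1 at 12.2 and 23.8 TPM against between 1.46 and 8.35 TPM, and the dopamine receptor gene Drd2 at 10.7 and 10.3 TPM against between 1.13 and 2.74 TPM. Slc17a6, the vesicular glutamate transporter of subcortical neurons, stood at 47.9 and 70.7 TPM against between 14.5 and 26.5 TPM. Markers of cortical excitatory neurons did not move with them, as their 7 genes summed to 904 and 811 TPM against between 745 and 997 TPM in the other 6, and Fezf2 stood at 0.0657 and 0 TPM. The 8 striatal markers summed to 292 and 273 TPM against between 280 and 328 TPM, although CBLM479 was the highest of the 8 libraries for 3 of these markers and CBLM461 for 2. Drd2, Adora2a and Gpr6 were a small part of that sum, at 10.7, 4.66 and 0.426 TPM in CBLM479, so the sum cannot show a rise of such genes. A list of 12 midbrain and brainstem markers, written after these libraries had been seen and of which 11 were in the files, summed to 79.6 and 112 TPM against between 33.7 and 63.9 TPM. Without Slc17a6 the sums were 31.7 and 41.4 TPM against between 19.2 and 37.4 TPM, and CBLM479 was the highest library for 0 and CBLM461 for 5 of the 11 genes, with Th at 13.0 and 18.7 TPM against between 16.2 and 32.5 TPM. Of the 5 genes of that list that could be tested between the wild-type regions, Th was called higher in cerebellum and Chat lower. The part of other brain tissue in the Sst and Vip values was not tested.

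**Figure D2:**
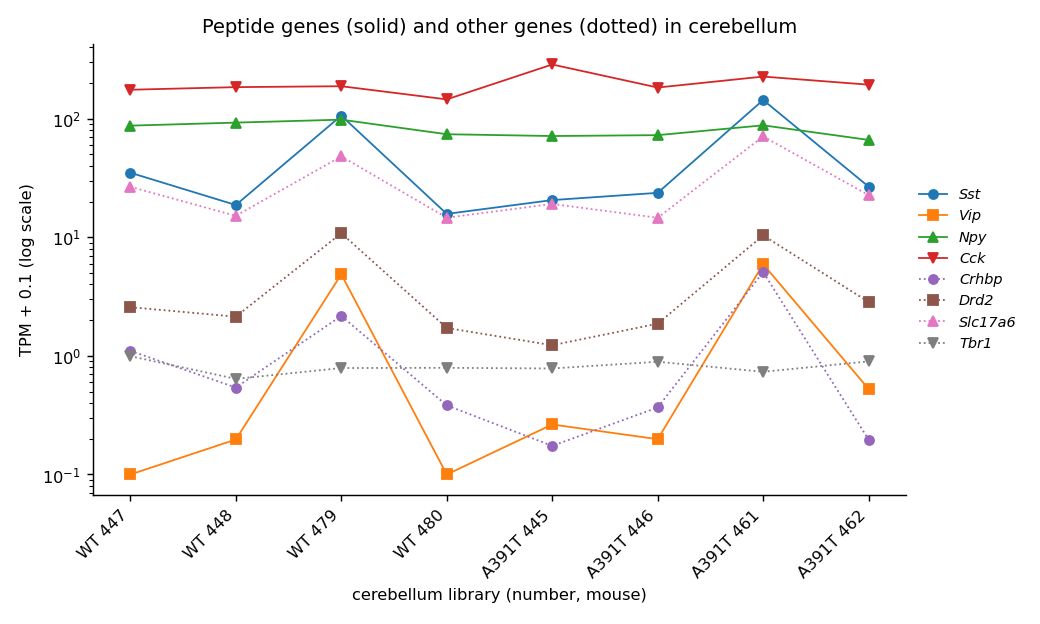
TPM plus 0.1 on a log axis in the 8 cerebellum libraries, for the peptide genes Sst, Vip, Npy and Cck (solid) and for Crhbp, Drd2, Slc17a6 and the cortical marker Tbr1 (dotted). Sst, Vip, Crhbp, Drd2 and Slc17a6 peak in CBLM479 and CBLM461, while Tbr1 stays between 0.540 and 0.894 TPM.

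Npy (chr6:49772709-49779506) encodes the precursor of neuropeptide Y, which many somatostatin and neurogliaform interneurons make. In wild-type mice it stood at 461.1, 428, 466 and 638 TPM in cortex and at 87.2, 92.4, 97.9 and 73.7 TPM in cerebellum. In A391T mice it stood at 418, 413, 454 and 441 TPM and at 71.2, 72.4, 87.7 and 66.0 TPM. Its log2 fold change was -2.65 (SE 0.14) in wild type and -2.64 (SE 0.09) in A391T, the smallest fall of the 5 genes called higher in cortex. Sst and Npy kept a narrow ratio in the 8 cortex libraries, from 2.79 to 3.15. In cerebellum the ratio was 0.400, 0.201, 1.08 and 0.212 in wild type and 0.287, 0.325, 1.635 and 0.403 in A391T. The highest value was that of CBLM479 in wild type and of CBLM461 in A391T.

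Cck (chr9:121398943-121404807) encodes the precursor of cholecystokinin. It was the most abundant of the 10 transcripts in cortex, at 1945, 1703, 1779 and 2486 TPM in wild-type mice and 1801, 1795, 2046 and 1890 TPM in A391T mice. In cerebellum it stood at 175, 184, 187 and 145 TPM in wild-type mice and at 286, 183, 226 and 193 TPM in A391T mice, where CBLM445 was again the highest. Between regions the log2 fold change was -3.67 (SE 0.14) in wild type and -3.17 (SE 0.16) in A391T, with adjusted p-values of 1.6e-09 and 9.9e-08 by edgeR.

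**Figure D3:**
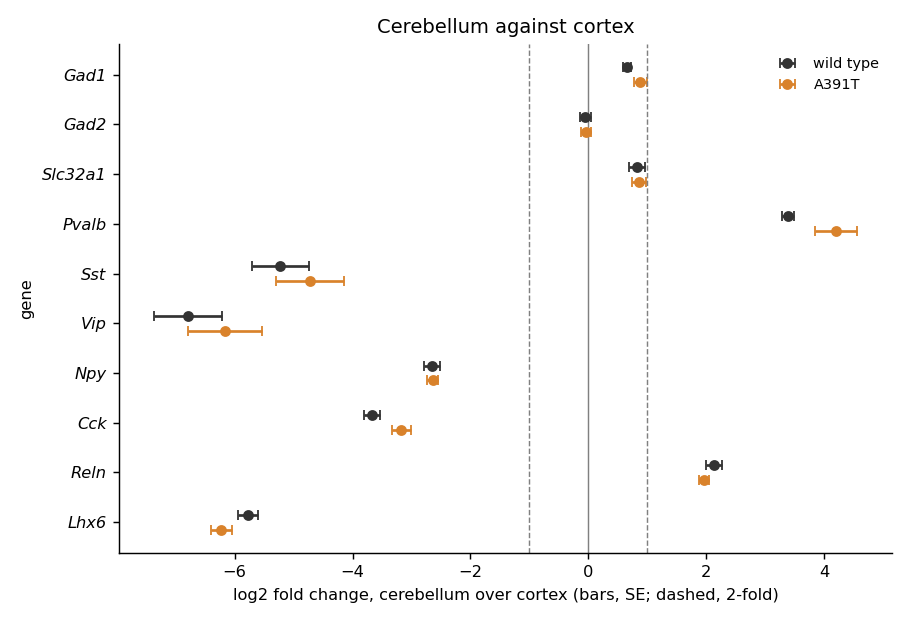
log2 fold change of cerebellum over cortex for each gene in wild-type and A391T mice, with bars of 1 SE and dashed lines at 2-fold. Both genotypes fall on the same side for every gene, with Pvalb and Reln above the upper line and the 4 peptide genes and Lhx6 below the lower line.

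A further 3 lists of peptide genes were counted against the 14.2% of all genes called higher in wild-type cortex. Of 14 other neuropeptide precursors, 10 were called lower in wild-type cerebellum and none higher, with a median log2 fold change of -3.79 beside 0.02 for all genes. The largest falls were those of Pdyn, the prodynorphin gene (50.9 ± 5.2 TPM in cortex and 0.845 ± 0.536 in cerebellum), Tac2 (37.5 ± 1.8 and 0.626 ± 0.231) and Cartpt (30.1 ± 3.2 and 0.830 ± 0.590). Of 10 tested receptors of the 4 peptides, 8 were called lower and 1 higher, with a median of -3.96. Cckbr, the main brain receptor of cholecystokinin, fell from 105 ± 4.0 to 2.98 ± 1.36 TPM, and the somatostatin receptor genes Sstr2 and Sstr4 from 47.8 ± 7.0 to 2.06 ± 0.67 TPM and from 22.3 ± 7.7 to 1.09 ± 0.61 TPM. Vipr2, a receptor of VIP, went the other way, from 0.362 ± 0.037 TPM in cortex to 14.0 ± 1.7 TPM in cerebellum. Sstr5 and Cckar were too low to test. Of 6 genes of peptide processing, 4 were called lower and none higher, with a median of -1.34. They included Pam, the amidating enzyme (117 ± 2.0 and 28.2 ± 2.2 TPM), and the convertases Pcsk2 (251 ± 26.8 and 71.7 ± 7.5) and Pcsk1 (36.1 ± 10.7 and 15.1 ± 1.0). In A391T mice the counts for these 3 lists were the same. The 14 precursors summed to 958 TPM in A391T CTX461, whose striatal markers summed to 290 TPM, against between 1163 and 1676 TPM in the other cortex libraries. The part of striatal tissue in the cortex values was not tested.

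Reln (chr5:21390272-21850523) encodes the secreted protein reelin, made in the adult by superficial cortical interneurons and by cerebellar granule cells. In wild-type mice it stood at 12.4, 15.5, 15.7 and 10.4 TPM in cortex and at 55.9, 58.1, 74.3 and 73.8 TPM in cerebellum. In A391T mice it stood at 14.7, 13.9, 12.7 and 13.7 TPM and at 48.6, 60.6, 55.3 and 65.9 TPM. On the log2 scale the regional difference was 2.13 (SE 0.13) in wild type and 1.96 (SE 0.08) in A391T, with adjusted p-values of 8.8e-08 and 2.7e-08 by edgeR. Reln ranked ninth of the 10 in cortex on the per-length scale, while its counts, which also reflect a length of 20639 bases, ran from 1284 to 2569 there. Of 8 genes of reelin reception and signal transduction, 1 was called, beside 10.5% of all genes tested called higher in wild-type cerebellum. It was the receptor Vldlr, at 31.6 ± 3.0 TPM in wild-type cortex and 73.4 ± 2.5 in wild-type cerebellum, and the median log2 fold change of the 8 was 0.04. In A391T mice none of the 8 was called.

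Lhx6 (chr2:35937470-35960928) encodes a LIM homeodomain factor of interneurons born in the medial ganglionic eminence, the source of the parvalbumin and somatostatin classes. In wild-type mice it stood at 10.7, 14.4, 13.9 and 10.0 TPM in cortex and at 0.220, 0.255, 0.282 and 0.227 TPM in cerebellum, where the libraries held from 10 to 13 counts. In A391T mice it stood at 11.1, 11.5, 12.1 and 10.3 TPM in cortex and at 0.215, 0.0859, 0.181 and 0.139 TPM in cerebellum, from 4 to 12 counts. The log2 fold change was -5.77 (SE 0.17) in wild type and -6.22 (SE 0.18) in A391T. Unlike Sst and Vip, its cerebellum libraries CBLM479 (wild type) and CBLM461 (A391T) were 1.21 and 1.24 times the mean of the other 3 libraries of their group.

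Of all genes tested, 14.2% were called lower in wild-type cerebellum and 10.5% higher. Of 14 tested transcription factors of interneurons, 11 were called lower in wild-type cerebellum, 1 higher and 2 neither. Their median log2 fold change was -4.82 beside 0.02 for all genes, with or without genes that had no count in cerebellum set to their bound. Dlx5 (12.4 ± 1.3 TPM in cortex) and Sp8 (6.60 ± 2.33) had no count in any of the 4 wild-type cerebellum libraries. Prox1, a factor of interneurons from the caudal ganglionic eminence that other neurons also use, was the 1 called higher, at 6.07 ± 0.51 and 19.7 ± 1.1 TPM. Of 13 other markers of cortical interneuron classes, 8 were called lower and 3 higher, with a median of -1.45. The largest falls were those of the serotonin receptor Htr3a (14.9 ± 1.9 and 0.112 ± 0.096 TPM), Lamp5 (329 ± 21.4 and 6.62 ± 5.89) and Crhbp (38.0 ± 3.1 and 0.949 ± 0.809). Higher in cerebellum were Calb2, the calretinin gene (36.0 ± 10.3 and 1192 ± 110 TPM), Syt2 (36.0 ± 9.2 and 325 ± 25.9) and the nitric oxide synthase Nos1 (16.9 ± 3.4 and 71.5 ± 2.8). Calb2 is also expressed by cerebellar granule cells. In A391T mice 8 and 3 of the 13 were again called lower and higher, and of the transcription factors 11 and 2.

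In order of mean level, the genes ran in wild-type cortex from Cck (1978 TPM) and Sst (1467) through Npy (498), Gad1 (174), Pvalb (143), Slc32a1 (124), Vip (123) and Gad2 (103) to Reln (13.5) and Lhx6 (12.3). Cck exceeded Sst in each of the 4 libraries though their ranges overlapped, Npy was apart from both neighbours, and within the run from Gad1 to Gad2 each gene overlapped with its neighbour, while Gad2 was apart from Reln. In wild-type cerebellum the order was Pvalb (1657 TPM), Gad1 (305), Slc32a1 (244), Cck (173), Gad2 (110), Npy (87.8), Reln (65.5), Sst (43.7), Vip (1.22) and Lhx6 (0.246). There each of the first 5 was apart from the next, while Npy and Reln overlapped, as did Reln and Sst, and Vip exceeded Lhx6 in 1 library of 4. That library was CBLM479, without which the mean was 23.0 TPM for Sst and 0.0325 TPM for Vip, below the 0.234 TPM of Lhx6. The lengths behind these levels are those of the deposited table, which for Pvalb and Lhx6 are 1.55 and 1.47 times the exon length of the annotation used here, so their place against other genes depends on that choice, while differences between libraries do not.

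A391T and wild-type mice were compared within each region, which is the comparison of genotypes in the series. None of the 10 genes was called in cortex by the edgeR quasi-likelihood test, none had an unadjusted p under 0.05 (4.73% of all genes did), and none was called by DESeq2. In that comparison 0.00632% of all genes were called and 0.0126% had an adjusted p under 0.05 without the fold criterion. The log2 fold changes of A391T against wild type ran from -0.27 (SE 0.13) for Vip to 0.01 (SE 0.11) for Reln, and 9 of 10 were negative. With the names of the RPKM table Gad1, Slc32a1, Pvalb and Lhx6 were positive instead (0.05, 0.06, 0.04 and 0.04), and without wild-type CTX480 Cck was positive (0.05). The groups overlapped for every one of the 10 genes, where 3.24% of all genes tested did not overlap. Sst, Vip, Npy and Pvalb had values of -0.21, -0.27, -0.23 and -0.19, and wild-type CTX480 was the highest cortex library for all 4. Without it their values were -0.07, -0.10, -0.07 and -0.10.

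In cerebellum, 9 of the 10 genes could be tested between genotypes, since Vip did not pass the filter on low counts. None was called by edgeR or DESeq2, where 0.00% of all genes were called by edgeR with the fold criterion and 0.00% without it, and 1 of the 9, Cck, had an unadjusted p under 0.05 by edgeR, beside 8.55% of all genes tested. Cck had a log2 fold change of 0.43 (SE 0.17, adjusted p 0.53 by edgeR) and Pvalb one of 0.65 (SE 0.31, adjusted p 0.53 by edgeR). Without A391T CBLM445 these were 0.23 and 0.14. Lhx6 had -0.57 (SE 0.31) and was the 1 gene whose wild-type and A391T levels did not overlap, on counts that did, from 10 to 13 and from 4 to 12. Of all genes tested, 7.83% did not overlap between the genotypes in cerebellum. Sst had 0.32 (SE 0.75), which turned to -0.83 without A391T CBLM461. With the names of the RPKM table, both libraries with high Sst are wild-type ones, and the value was -1.53.

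**Figure D4:**
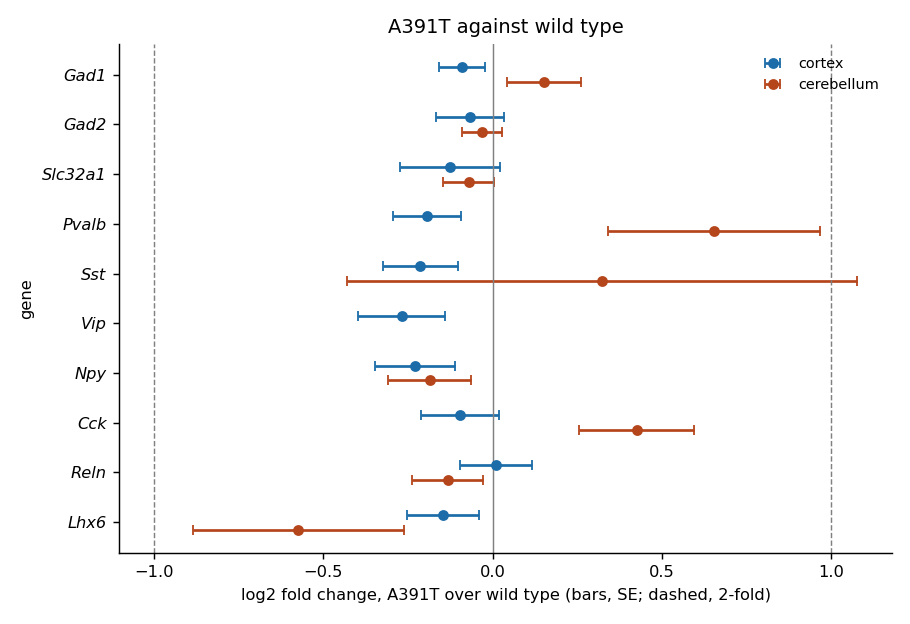
log2 fold change of A391T over wild type for each gene in cortex and in cerebellum, with bars of 1 SE and dashed lines at 2-fold. Vip has no cerebellum point because it did not pass the filter on low counts. All points lie inside the lines, and the widest bar is that of Sst in cerebellum.

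The difference between regions was also compared between the genotypes, as an interaction over the 16 libraries. None of the 10 genes was called by edgeR or DESeq2, beside 0.00% of all genes, and Pvalb and Cck had an unadjusted p under 0.05 by edgeR, beside 4.85% of all genes tested. The interaction was 0.84 (SE 0.36, adjusted p 0.77 by edgeR) for Pvalb and 0.51 (SE 0.22, adjusted p 0.77 by edgeR) for Cck, and 0.33 and 0.32 without A391T CBLM445. None of the tested genes of the 14 gene lists had an adjusted p under 0.05 between genotypes in either region.

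In 2 of the 16 libraries, short genes stood further above long genes than in the others. In wild-type CTX480, the 5 shortest of the 10 genes, Npy, Sst, Cck, Vip and Pvalb, were the highest of all 8 cortex libraries, by 0.33 to 0.56 on the log2 scale above the median of the region. Slc32a1, Gad2, Lhx6 and Reln were the lowest there, and Gad1 was near the median at -0.02. Over all genes with at least 1 TPM, genes under 1000 bases stood 0.31 above genes over 5000 bases in this library on the log2 scale, against between -0.10 and 0.06 in the other cortex libraries. This library was the highest for 21.7% and the lowest for 32.3% of all genes. In A391T CBLM445 the same measure was 0.24, against between -0.10 and 0.03 in the others, and Slc32a1, Gad2 and Reln were again the lowest of 8, but Pvalb (1.31 above the median), Cck (0.62) and Gad1 (0.28) were the highest while Npy (-0.17) and Sst (-0.29), the shortest, lay below the median, so the 10 genes did not follow length there. Over all genes, A391T CBLM445 was the lowest of 8 for 46.2% and the highest for 24.0%, beside 3 and 3 of the 10 genes. The part of RNA quality or tissue makeup in these libraries was not tested.

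**Figure D5:**
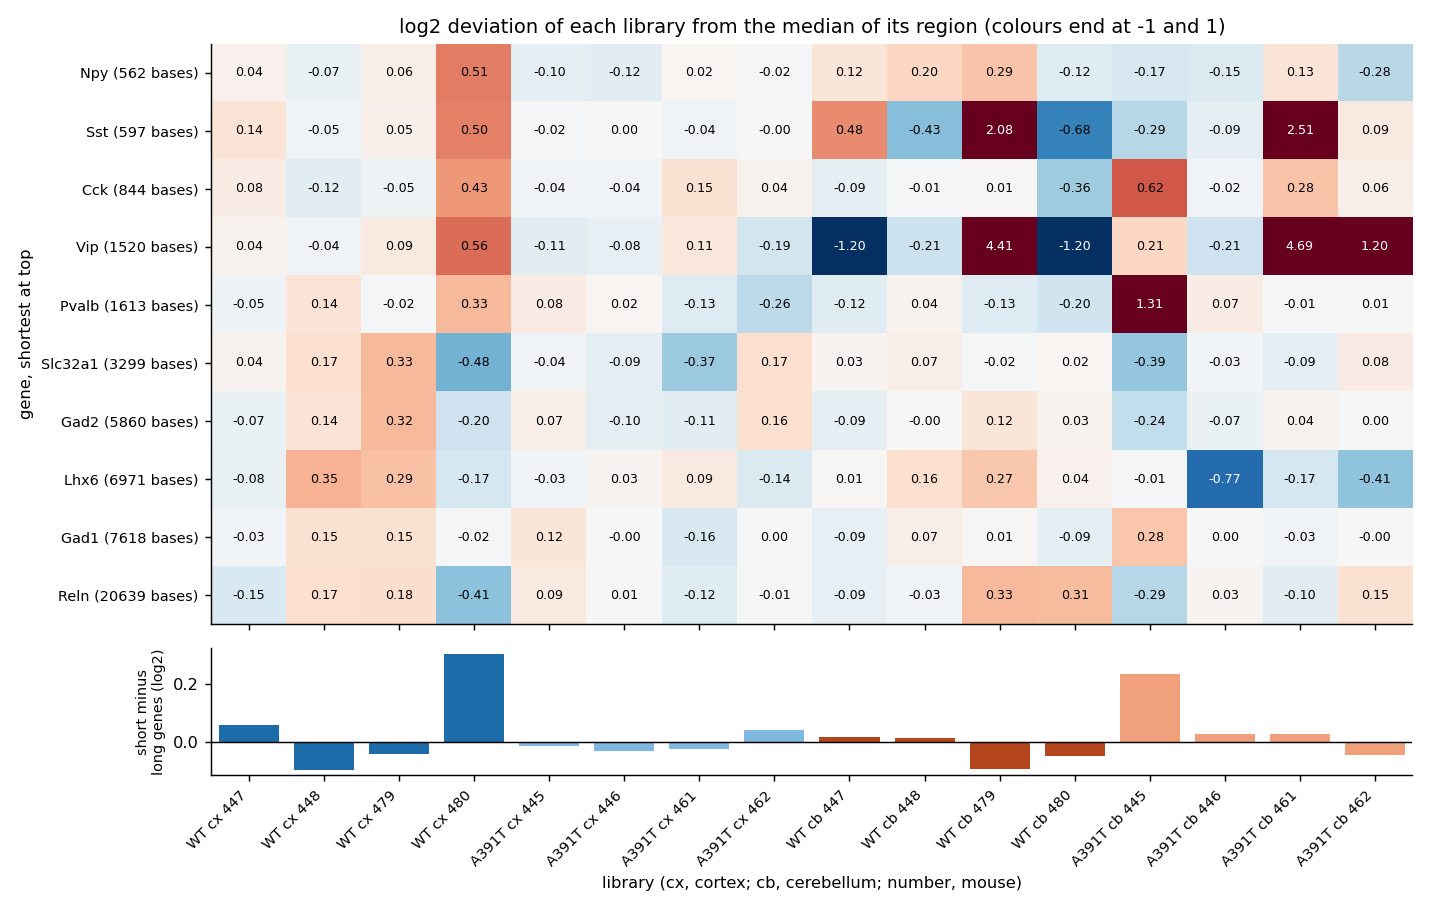
Top, log2 deviation of each gene in each library from the median of the 8 libraries of its region, with genes ordered by the length in the deposited table. Bottom, median deviation of genes under 1000 bases minus that of genes over 5000 bases. In wild-type CTX480 the short genes are high and most long ones low, and in A391T CBLM445 Pvalb, Cck and Gad1 are high.

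Within cortex the levels of the members can be set against each other over the 8 libraries, which share depth and length effects and are given as a description. The highest Pearson correlations of log2 CPM were those of Sst with Npy (0.96) and Vip with Npy (0.95), and the lowest that of Cck with Reln (-0.96). Without wild-type CTX480 these were 0.67, 0.62 and -0.94. Gad2 and Slc32a1 had 0.91 with that library and 0.89 without it. Many genes reached such values, since 327 of 15902 genes exceeded 0.9 with Sst and 437 with Reln, but 21 with Gad1. The genes most like Gad1 were Cacna2d3 (0.98) and Inpp5f (0.97), those most like Gad2 were Tmem150c (0.98) and Tmem231 (0.97), and those most like Slc32a1 were Tmem28 and Rap1gap (both 0.97).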

How the data were processed

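RNA-seq libraries of cortex and cerebellum (4 wild-type and 4 A391T mice) were made from total RNA by polyA selection. The submitters' processing notes name STAR, HTSeq, edgeR and build mm9, without versions. The deposited counts are whole reads per gene, which the authors counted without regard to strand, and from 21.4% to 27.1% of entries fell on no single gene. The deposited RPKM table, made by the authors, was used for gene names and lengths, and to compare sample names: 8 of its 16 columns carry another name than the count library they hold. The authors' test results were not used. Apart from gene identifiers, names and lengths, each column of the RPKM table belonged to a sample. TPM was computed from counts and lengths. Groups follow the titles of the count files.

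Tests were edgeR (4.0.16, R 4.3.3, limma 3.58.1) quasi-likelihood tests after filterByExpr and TMM scaling, adjusted by Benjamini-Hochberg over every gene tested, and calls needed an adjusted p under 0.05 together with a change of at least 2-fold. SE is the log2 fold change divided by the square root of F. DESeq2 (1.42.0) was an alternative. Scripts were tested on simulated data. The members and gene lists were chosen with earlier results of these data known. All members are named, and from each list up to 3 called genes with the largest change in each direction between wild-type regions, except for genes that are not reported here. The midbrain and brainstem list and the fits without 5 libraries were added after seeing the data.

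Same-numbered libraries come from the same mouse. The correlation of their deviations from the group means ran from -0.11 to 0.15, against -0.20 to 0.18 for other mice, and the fit with the mouse as a replicate block changed no call of the 10 genes. Depth, from 20813432 to 30497206 counts on genes, limits Vip and Lhx6 in cerebellum.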

Additional observations from a re-analysis of the deposited data

Results flagged for a closer look

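Within the 40 groups of 4 libraries (10 genes in 4 groups), 5 had a highest library whose gap to the next, divided by the range of the group, exceeded Dixon's critical value for 4 samples. Chance flags about 1 in 20 groups. In A391T cerebellum, CBLM445 was far above the others for Gad1 (376.1 TPM, gap over range 0.897) and Pvalb (4418 TPM, 0.962). CBLM461 was far above the others for Sst (143.4 TPM, 0.95) and Vip (5.819 TPM, 0.943). In wild-type cerebellum, CBLM479 was far above the others for Vip (4.772 TPM, 0.98). The 5 flags thus fall on 3 cerebellum libraries, and no cortex library was flagged for any of the 10 genes.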

How the results depend on the processing

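The 7 calls between regions held in each genotype under the alternatives run, except that DESeq2 gave no adjusted p for Vip in either genotype and for Sst in A391T, which left 6 and 5 calls. It also gave none for Lhx6 between genotypes in cerebellum and for Sst and Vip in the interaction. Of the member log2 fold changes under an alternative, 883 kept their direction and side of the threshold, 42 changed sign, all of them values that were not called, and 1 newly passed: with library totals as scaling, which moved the median of all genes to 0.14 and 0.16, Gad1 between A391T regions was 1.01. Library totals also turned Gad2 to 0.071 (wild type) and 0.091 (A391T), and leaving out a library gave -0.129 to 0.033 and -0.091 to 0.016. The log2 ratio of Gad1 to Gad2 was 0.703 and 0.908 in the replicate block, and without 1 library it ran from 0.641 to 0.760 and from 0.776 to 0.974, with exact permutation p = 0.057, the smallest that 3 against 4 can give. The other sign changes concern genotype. In cortex the names of the RPKM table gave Gad1 0.054, Slc32a1 0.063, Pvalb 0.041 and Lhx6 0.044, leaving out a library gave Gad2 -0.134 to 0.017, Cck -0.170 to 0.049 and Reln -0.085 to 0.076, and leaving out the 5 libraries gave Cck 0.011 and Reln -0.045. In cerebellum the table's names gave Sst -1.528 and Npy 0.051, the mice whose names match gave Sst -1.351, leaving out a library gave Sst -0.833 to 1.224, and leaving out the 5 libraries gave Reln 0.016. For the interaction, the table's names gave Gad2 -0.046, Slc32a1 -0.081, Sst -1.404 and Vip -4.433, and the mice whose names match gave -0.019, -0.037, -1.037 and -3.477. Leaving out a library gave Gad2 -0.062 to 0.10, Slc32a1 -0.050 to 0.181, Sst -0.628 to 1.433, Vip -2.078 to 5.372 and Npy -0.115 to 0.103, and leaving out the 5 libraries gave Npy -0.192 and Reln 0.066. The cause of these changes was not tested.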

Other observations

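The ratio of Cck to Npy, which the comparisons above do not use, was 3.98 ± 0.17 (SD, n = 4) in wild-type cortex and 4.36 ± 0.10 in A391T cortex, and 1.97 ± 0.04 and 3.01 ± 0.69 in the cerebellum groups. The ratio of Sst to Vip was 12.2 ± 0.92 over the 8 cortex libraries. These are values with no test.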
